A study of Homo sapiens with 6 samples.

Results

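The miR-181 family consists of small RNAs whose guide strands, the arms loaded into Argonaute to silence messenger RNAs, share a seed and therefore much of their target range. The members were taken by name, as the rows of hsa-miR-181a-5p, hsa-miR-181b-5p, hsa-miR-181c-5p and hsa-miR-181d-5p, written below without the species prefix, in the count tables of 6 small RNA libraries. Of these 4 names, 3 had a row among the 503 miRNAs listed, and 2, miR-181a-5p and miR-181b-5p, passed the filter on low counts and were tested. miR-181c-5p was not analysed here. The rule is by name and uses no count, although the family was picked with earlier results of these data known.

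The libraries were made from exosomes, small vesicles released into the culture medium, of MDA-MB-231 cells, a widely used line from a human breast carcinoma of the triple-negative subtype. They came from stable clones that express a hairpin named shMCU, 3 libraries, or shNC, 3 libraries. The series compares cells with lowered MCU, the gene for the pore of the channel through which mitochondria take up calcium, with their control. All cells were grown for 48 h in medium with 10% exosome-free serum. The labels do not say whether the libraries of a group came from separate cultures or how many clones were used, so the p-values reflect only how these libraries differ among themselves, possibly for technical reasons. The knockdown itself cannot be checked in small RNA libraries.

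In animals, miRNAs of this family are best known from lymphocytes, where miR-181a raises the sensitivity of the T cell receptor in mice. In breast carcinoma, miR-181a has been described as induced by TGF-beta and linked to metastasis, and miR-181b as induced by STAT3 in transformed human mammary cells. Family members also have links to mitochondria: miR-181c acts on a mitochondrial transcript in rat heart cells, and miR-181a and miR-181b limit mitochondrial biogenesis in the nervous system of mice. Whether such roles operate in these cells was not measured.

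The guide sequences are shown first because the whole comparison rests on telling them apart. Capitals mark the seed, bases 2 to 8 counted from the 5′ end, in sequences from RefSeq (GRCh38.p14).
miR-181a-5p: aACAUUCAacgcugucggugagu
miR-181b-5p: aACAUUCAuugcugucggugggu
miR-181d-5p: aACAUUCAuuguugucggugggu
miR-181c-5p: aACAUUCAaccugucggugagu
All 4 carry the seed ACAUUCA. Among 2370 mature miRNA names in RefSeq, 5 carry it, the fifth being miR-4262, which was not analysed here. Relative to miR-181a-5p, miR-181b-5p differs at 3 of 23 positions, A9U, C10U and A21G, all outside the seed. miR-181d-5p differs from miR-181b-5p by C12U alone, so a read with 1 mismatch at that position could be counted as either. miR-181c-5p is 22 bases long and lacks the G at position 11 of miR-181a-5p. The treatment of mismatches and of reads that match several miRNAs is not given in the sources used here, which makes the split between miR-181b-5p and miR-181d-5p uncertain.

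The same guide sequence is encoded at more than 1 place in the genome. On chromosome 1, minus strand, MIR181A1 (chr1:198859044-198859153) and MIR181B1 (chr1:198858873-198858982) lie 61 bases apart in an intron of MIR181A1HG, a long non-coding RNA gene. On chromosome 9, plus strand, MIR181A2 (chr9:124692442-124692551) and MIR181B2 (chr9:124693710-124693798) lie 1158 bases apart in an intron of MIR181A2HG. MIR181C (chr19:13874699-13874808) and MIR181D (chr19:13874875-13875011) lie 66 bases apart on the plus strand of chromosome 19, within an intron of NANOS3 in the GENCODE release 29 annotation of GRCh38. The hairpins of miR-181a illustrate why guide reads cannot be given a locus. Capitals here mark the guide, which is identical in both, while the opposite arm near the 3′ end differs.
MIR181A1: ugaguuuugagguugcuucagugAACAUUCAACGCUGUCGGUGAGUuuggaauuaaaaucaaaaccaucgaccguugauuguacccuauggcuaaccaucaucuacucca
MIR181A2: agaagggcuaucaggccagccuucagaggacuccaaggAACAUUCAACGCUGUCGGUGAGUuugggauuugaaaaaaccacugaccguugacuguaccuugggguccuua
Reads of miR-181a-5p and miR-181b-5p can therefore come from the clusters on chromosomes 1 and 9 alike. How reads that match both places were counted is not given.

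The libraries were shallow, with 12859 to 14692 counts in the shMCU group and 11563 to 47863 counts in the shNC group, and 79 miRNAs passed the filter. Levels are given as CPM, the counts of a miRNA divided by its library's total and put on 1 scale. Where no read was counted, up to 3 counts remain possible, or 62.7 CPM at the largest total and 259 CPM at the smallest. Poisson and binomial intervals below cover counting error only, since PCR copies could not be told from separate molecules. On the first principal component of the tested miRNAs, shMCU replicate 3 was far from the rest, at 6.11, where the other libraries were between -2.73 and 1.11, so fold changes and the share difference are also given without it. As for the labelled cell type, 5 basal-like markers held 25.7% to 36.1% of counts in shMCU and 32.0% to 36.6% in shNC libraries, whereas 6 epithelial markers held at most 0.136% and 0.208%. Most of the basal-like share was miR-21-5p and miR-100-5p, with means of 190752 and 124882 CPM over all libraries. The other members, miR-221-3p, miR-222-3p and miR-125b-5p, had 11768, 3657 and 1205 CPM. Comparing shMCU with shNC by edgeR's quasi-likelihood test, 0 of 79 miRNAs (0%) were past the adjusted threshold of 0.05 and 3 (3.8%) had an unadjusted p under 0.05. DESeq2 called 1, miR-122-5p, and limma called 0.

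miR-181a-5p and miR-181b-5p, the main guides of the family here, were counted in all 6 libraries. Their levels were lower in each shMCU library than in any shNC library, as was so by CPM for 8 of the 79 tested miRNAs (10.1%). The fitted values were 0.79-fold and 0.67-fold, but neither difference passed the test across all miRNAs. The intervals hold no change as well as a fold near 0.42 to 0.53. Of the reads of both guides, miR-181a-5p made up 53.3% to 61.4% in shMCU and 49.7% to 56.7% in shNC libraries. The interval of every library held equal counts, but these intervals are wide, and a difference in balance is neither shown nor excluded. In abundance both guides were intermediate among the 79 tested miRNAs, and miR-181d-5p was close to the limit of detection. By mean CPM over all libraries, miR-181a-5p took place 39 and miR-181b-5p place 47 of 503, with 2660 and 2153 CPM. miR-181d-5p took place 248, with 43.1 CPM. Around miR-181a-5p in that order stood miR-99a-5p (2690 CPM) and the cell cycle regulator miR-16-5p (2666 CPM) above it, and miR-6087 (2643 CPM) and miR-629-5p (2535 CPM) below it. Around miR-181b-5p stood miR-101-3p (2170 CPM) and miR-183-5p (2165 CPM) above it and miR-182-5p (2105 CPM) and miR-378c (2080 CPM) below it. The range over the 6 libraries of each of these neighbours overlapped that of the member beside it, so the exact places are not fixed by the data.

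miR-181a-5p had 32, 28 and 27 counts in shMCU replicates 1, 2 and 3, against 152, 38 and 60 counts in shNC replicates 1, 2 and 3. Scaled to library totals these were 2475, 1906 and 2100 CPM in the shMCU libraries, against 3176, 3286 and 3018 CPM in the shNC libraries. Every shMCU library was under every shNC library, as was so for 10.1% of the 79 tested miRNAs, and the closest were shMCU replicate 1 and shNC replicate 3. The means were 2160 ± 289 CPM in shMCU and 3160 ± 135 CPM in shNC libraries (SD, n = 3 each). On libraries scaled by TMM, the trimmed mean of log ratios between libraries, the fit gave a log2 fold change of -0.34 ± 0.26 (SE), or 0.79-fold (95% interval 0.53 to 1.18). It did not pass the test (unadjusted p = 0.22, adjusted p = 0.71 by edgeR's quasi-likelihood test).

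miR-181b-5p had 28, 19 and 17 counts in shMCU replicates 1, 2 and 3, against 154, 29 and 48 counts in shNC replicates 1, 2 and 3. In CPM these were 2166, 1293 and 1322 in the shMCU libraries, against 3218, 2508 and 2414 in the shNC libraries. Again no shMCU library reached the lowest shNC library; within the groups, shMCU replicate 1 and shNC replicate 1 were the highest. The means were 1594 ± 496 CPM in shMCU and 2713 ± 439 CPM in shNC libraries (SD, n = 3 each). The fit gave a log2 fold change of -0.58 ± 0.30 (SE), or 0.67-fold (95% interval 0.42 to 1.06). It too did not pass (unadjusted p = 0.080, adjusted p = 0.70 by edgeR's quasi-likelihood test), although its unadjusted p was the 5th smallest of the 79.

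miR-181d-5p had 1, 1 and 0 counts in shMCU replicates 1, 2 and 3, against 3, 0 and 1 counts in shNC replicates 1, 2 and 3. Over the groups this was 2 of 40481 counts in shMCU and 4 of 79310 counts in shNC, a ratio of 0.98 with an exact 95% interval from 0.089 to 6.84 for counting error. A difference in miR-181d-5p was not detectable at this depth.

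**Figure D1:**
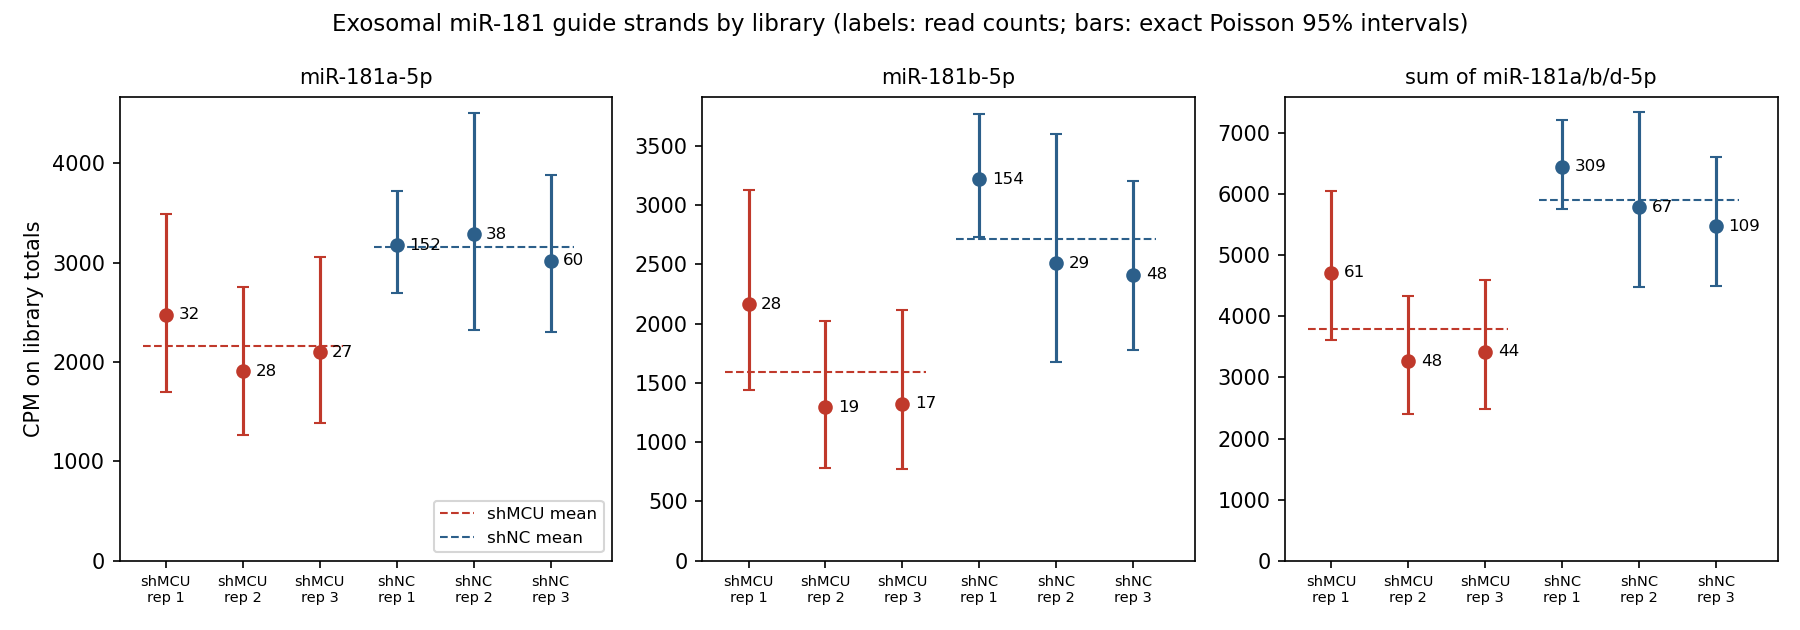
CPM on library totals (vertical axis) of miR-181a-5p, miR-181b-5p and the sum of the listed guides in each library (horizontal axis), with exact Poisson 95% intervals as bars, read counts as labels and group means as dashed lines. All 3 shMCU points lie below all 3 shNC points in each panel, for example at 3267 to 4718 CPM against 5482 to 6456 CPM for the sum, while many of the intervals overlap between the groups.

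The sum of the listed guides does not depend on the split between near-identical members, if each read was counted once for a listed guide. It was 61, 48 and 44 counts in shMCU replicates 1, 2 and 3, against 309, 67 and 109 counts in shNC replicates 1, 2 and 3. As a share of all counts it was 0.472%, 0.327% and 0.342% in the shMCU libraries, against 0.646%, 0.579% and 0.548% in the shNC libraries. The groups did not overlap, as was so by CPM for 10.1% of the 79 tested miRNAs. The log2 fold change fitted to the sum was -0.52 ± 0.23 (SE), or 0.70-fold (95% interval 0.49 to 0.99), when TMM factors were computed on the table with the summed row. With the TMM factors of the table of separate members, it was -0.43 ± 0.22 (SE), or 0.74-fold (0.52 to 1.05). Over all tested miRNAs, the median was -0.10 in the first of these fits and -0.01 in the second (log2), a shift of about the same size. Without shMCU replicate 3 the log2 fold change of the sum was -0.46 ± 0.24 (SE). No p-value is given for the sum, since it is a score over chosen members.

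The spread of the members between libraries of a group was set beside that which counting error alone would give, and was on either side of it. For miR-181a-5p, the SD between libraries was 289 CPM in shMCU and 135 CPM in shNC, where counting error at these totals gives 400 and 407 CPM. For miR-181b-5p it was 496 CPM in shMCU and 439 CPM in shNC, where counting gives 343 and 391 CPM. For the sum it was 797 CPM in shMCU and 497 CPM in shNC, where counting gives 530 and 567 CPM. Within each group the Poisson intervals of all 3 libraries overlapped for each of these miRNAs and for the sum. With 17 to 32 counts per shMCU library, depth in that group limits what can be said of either miRNA.

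Groups that do not overlap were not rare among the tested miRNAs. By CPM on library totals, the highest shMCU library was under the lowest shNC library for 8 of 79 miRNAs (10.1%), both members among them. With TMM-scaled CPM the number was 5 (6.33%), and these still held miR-181a-5p, miR-181b-5p and miR-103a-3p, together with miR-27b-3p and miR-320b. Separation in the other direction also occurred with TMM-scaled CPM. It was seen for miR-122-5p, miR-378a-3p, miR-7-5p, miR-10a-5p, miR-4461, miR-101-3p and miR-183-5p, which were higher in shMCU. On that scale miR-181a-5p had 2442, 2135 and 2661 in shMCU replicates 1, 2 and 3, against 2937, 3155 and 3050 in shNC replicates 1, 2 and 3. miR-181b-5p had 2136, 1448 and 1675 in the shMCU libraries, against 2976, 2408 and 2440 in the shNC libraries. The separation of miR-181a-5p was narrower than on library totals, at 2661 in the highest shMCU library against 2937 in the lowest shNC library. Counts over DESeq2 size factors also left both members without overlap.

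Ranks within a library need no scaling at all. Among the 79 tested miRNAs, ordered by count within each library, miR-181a-5p took places 42.5, 48 and 42.5 in shMCU replicates 1, 2 and 3, against places 36, 38 and 38 in shNC replicates 1, 2 and 3. miR-181b-5p took places 48, 56 and 54 in the shMCU libraries, against places 35, 43.5 and 44 in the shNC libraries. Both were further down the order in every shMCU library than in any shNC library, which held for 4 of the 79 tested miRNAs (5.06%).

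By size, the members were on the lower side of the tested miRNAs without being at its end. The median log2 fold change of all 79 was -0.02, and 41 of 79 (51.9%) were fitted lower in shMCU. miR-181b-5p had the 5th lowest and miR-181a-5p the 14th lowest fold change. With library totals alone in place of TMM, the median of all tested miRNAs moved to -0.24, and the fold changes of miR-181a-5p and miR-181b-5p to -0.55 and -0.78. Relative to the median they were -0.31 and -0.55 with TMM, and -0.31 and -0.54 with library totals.

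**Figure D2:**
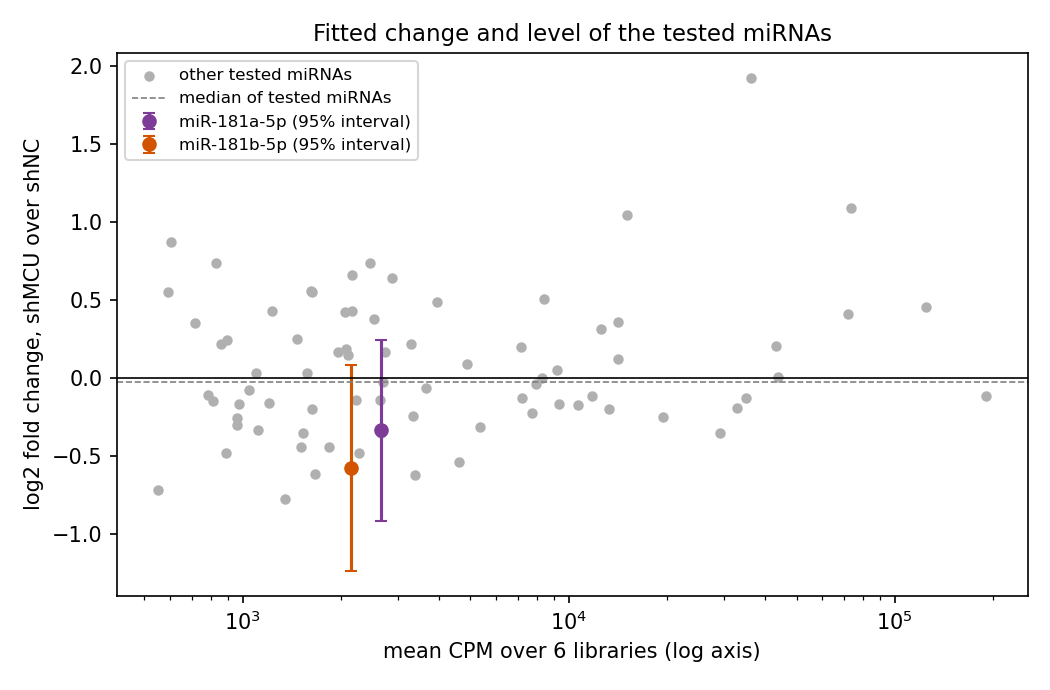
Fitted log2 fold change of shMCU over shNC (vertical axis) against mean CPM over the 6 libraries (horizontal axis, log scale) for the 79 tested miRNAs, with 95% intervals for miR-181a-5p and miR-181b-5p. Both members lie below the median of -0.02, at -0.34 and -0.58, and both intervals cross 0.

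The fitted values were also negative without the library far from the rest and without the deepest one. Without shMCU replicate 3, the log2 fold change was -0.45 ± 0.26 (SE) for miR-181a-5p and -0.60 ± 0.34 for miR-181b-5p, each at adjusted p = 0.99 (quasi-likelihood test of edgeR). Without shNC replicate 1 it was -0.37 ± 0.31 for miR-181a-5p and -0.47 ± 0.35 for miR-181b-5p (adjusted p = 0.63 for each, by the same edgeR test). Leaving out each of the 6 libraries in turn gave -0.45 to -0.28 for miR-181a-5p and -0.78 to -0.47 for miR-181b-5p. The most negative value of miR-181b-5p, without shMCU replicate 1, had an adjusted p of 0.26 in edgeR's test (0.026 before adjustment).

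**Figure D3:**
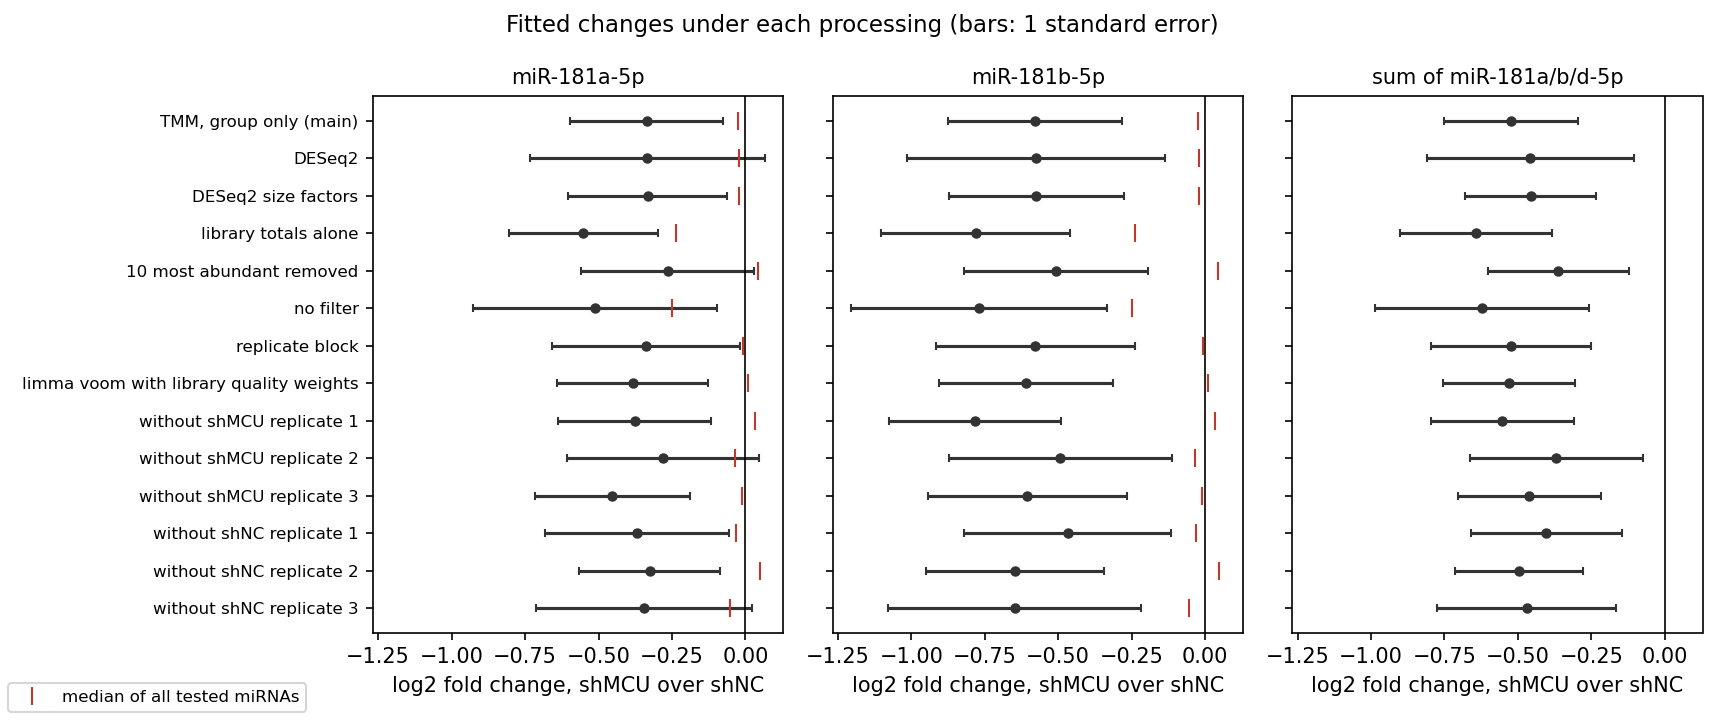
Fitted log2 fold change of shMCU over shNC (horizontal axis) with 1 standard error, under each processing (rows), for miR-181a-5p, miR-181b-5p and the sum of the listed guides; red ticks in the panels of the separate miRNAs mark the median of all tested miRNAs in the same fit. Every point lies below 0, between -0.55 and -0.26 for miR-181a-5p and between -0.78 and -0.47 for miR-181b-5p.

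Both guides are cut from the same pairs of neighbouring hairpins. Their balance within a library is free of any scaling, since both counts share that library's total. The share of miR-181a-5p among miR-181a-5p and miR-181b-5p reads was 53.3%, 59.6% and 61.4% in shMCU replicates 1, 2 and 3, against 49.7%, 56.7% and 55.6% in shNC replicates 1, 2 and 3. The groups overlapped, and every library's exact (Clopper-Pearson) 95% interval held a share of 50%, the widest running from 44.3% to 73.6% in shMCU replicate 2 and from 45.5% to 75.6% in shMCU replicate 3. As ratios of miR-181a-5p to miR-181b-5p counts these were 1.14, 1.47 and 1.59 in shMCU, against 0.99, 1.31 and 1.25 in shNC libraries. The mean shares were 58.1% ± 4.22 in shMCU and 54.0% ± 3.78 in shNC (SD, n = 3 each), a difference of 4.11 percentage points (two-sided exact permutation test, p = 0.30; the smallest p this design allows is 0.1). Pooled over libraries, 87 of 151 reads were miR-181a-5p in shMCU, 57.6% with an exact interval from 49.3% to 65.6%, and 250 of 481 in shNC, 52.0% with an interval from 47.4% to 56.5%. The difference was 1.95 points without shNC replicate 1, 2.47 points without shMCU replicate 3 and 6.49 points without shMCU replicate 1, so its size rests on single libraries. With 3 libraries per group the test cannot reach 0.05, and a difference in balance is neither shown nor excluded.

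**Figure D4:**
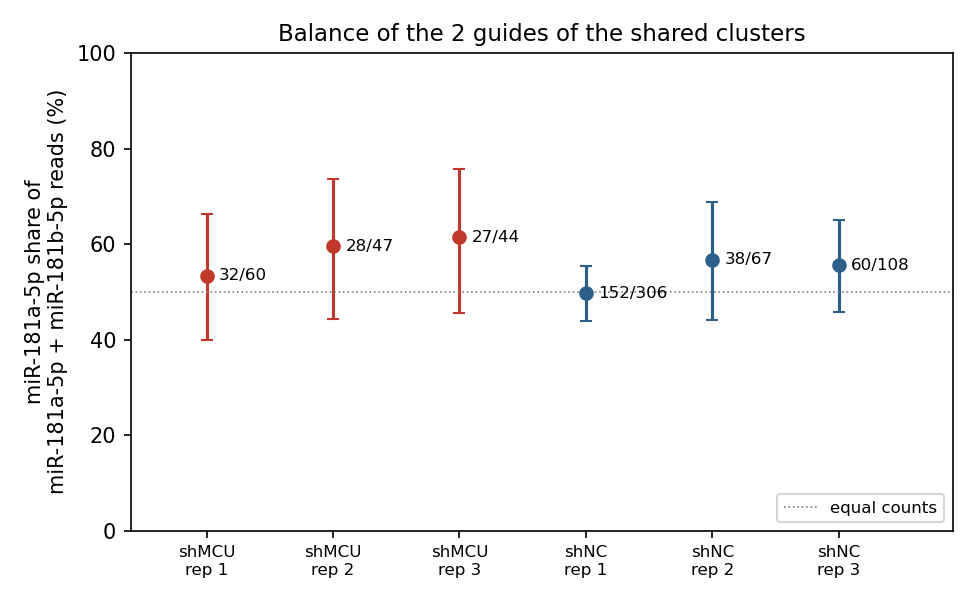
Share of miR-181a-5p among miR-181a-5p and miR-181b-5p reads (vertical axis, percent) in each library (horizontal axis), with exact 95% binomial intervals and the counts as labels; the dotted line marks equal counts. The shMCU shares of 53.3% to 61.4% overlap the shNC shares of 49.7% to 56.7%, and each interval crosses the line.

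The opposite arms of the hairpins, which are usually degraded after the guide is loaded, can tell the loci apart but were almost uncounted. The arm sequences show where the hairpins of miR-181a differ.
miR-181a-3p: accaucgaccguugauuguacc
miR-181a-2-3p: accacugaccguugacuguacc
The first is encoded by MIR181A1 on chromosome 1 and the second by MIR181A2 on chromosome 9, and each has 1 locus in RefSeq. miR-181a-3p had 0, 1 and 0 counts in shMCU replicates 1, 2 and 3, against 5, 0 and 1 counts in shNC replicates 1, 2 and 3. miR-181a-2-3p had 0 counts in each shMCU library, against 2, 0 and 0 counts in the shNC libraries. miR-181b-3p, from MIR181B1 on chromosome 1, had 0 counts in each shMCU library, against 1, 0 and 0 counts in the shNC libraries. Most of these reads were in shNC replicate 1, the deepest library, and a count of 0 in an shMCU library allows up to 204 to 233 CPM, above the level in that library, where miR-181a-3p had 104 CPM. Opposite arms from both chromosomes were thus counted in shNC, and a difference between the groups was not detectable. Over all libraries, miR-181a-3p and miR-181a-2-3p together made up 9 of 346 reads from the arms of miR-181a (2.60%), and miR-181b-3p made up 1 of 296 from the arms of miR-181b (0.338%).

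The miRNAs whose log2 CPM over the 6 libraries was most like that of the members were the other member, miR-103a-3p and miR-17-5p. For miR-181a-5p they were miR-103a-3p (Pearson's r = 0.82), miR-181b-5p (r = 0.79) and miR-17-5p (r = 0.77). For miR-181b-5p they were miR-181a-5p, miR-17-5p (r = 0.79) and miR-103a-3p (r = 0.77). These are descriptions over 6 libraries that share depth and group. miR-103a-3p, encoded in introns of pantothenate kinase genes, had 1436 ± 313 CPM in shMCU and 2260 ± 216 CPM in shNC libraries (SD, n = 3 each) and a fitted fold of 0.73 (95% interval 0.45 to 1.19). miR-17-5p, of an oncogenic miRNA cluster, had 911 ± 693 CPM in shMCU and 1781 ± 491 CPM in shNC libraries, with a fold of 0.58 (0.27 to 1.25). Neither passed the test (adjusted p = 0.71 and 0.70, edgeR's quasi-likelihood test).

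Other miRNAs with roles like those described for this family were read beside it, and 0 passed the test. Of 7 miRNAs linked to TGF-beta or the epithelial-mesenchymal transition, 4 were tested, miR-181a-5p among them, 0 were called, and the rest were under the filter. All 4 were fitted lower, as were 41 of all 79 tested miRNAs (51.9%). Their median log2 fold change was -0.11, against -0.02 for all tested miRNAs. The most abundant of them were miR-21-5p, an oncogenic miRNA, at -0.11 ± 0.23 (SE) and miR-221-3p, a basal-like miRNA that represses the cell cycle inhibitor p27, at -0.11 ± 0.25, both at adjusted p = 0.92 (edgeR's quasi-likelihood test). Of 7 miRNAs linked to mitochondria, 3 were tested under the names looked up, 0 were called, 2 were fitted higher and 1 lower, with a median of 0.12. They were miR-25-3p, which targets MCU, at 0.12 ± 0.25, miR-378a-3p, made from an intron of the coactivator gene PPARGC1B, at 0.36 ± 0.22, and miR-138-5p, at -0.72 ± 0.69 (log2, SE). The list's miR-1-3p was looked up by that name alone. A row named miR-1 was also tested, at 0.22 ± 0.79 (log2, SE), and is not in these counts. Under the filter, miR-210-3p, a hypoxia-induced miRNA that represses iron-sulphur cluster assembly, had 1, 0 and 1 counts in shMCU replicates 1, 2 and 3, against 5, 7 and 3 counts in shNC replicates 1, 2 and 3, without overlap by CPM. The gap was less than 1 read is worth in shMCU replicate 3, which is 77.8 CPM. By CPM, 8 of the 79 tested miRNAs (10.1%) were lower in shMCU without overlap. miR-210-3p was not tested and was chosen for mention after its values were seen.

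Since miR-181 is abundant in lymphocytes, markers of blood cells were read beside it. All 8 blood and lymphoid miRNAs with a row together held 0.136% to 0.226% of counts in shMCU and 0.166% to 0.268% in shNC libraries, so their summed level overlapped between the groups and was below that of the miR-181 sum in every library. The white cell markers miR-223-3p, miR-150-5p, miR-142-3p and miR-142-5p had 1, 3, 4 and 9 counts over all 6 libraries. The red cell marker miR-451a was counted in every library, with 4, 3 and 3 counts in shMCU replicates 1, 2 and 3, against 7, 2 and 4 counts in shNC replicates 1, 2 and 3. miR-486-5p, also abundant in red cells, had 7, 3 and 9 counts in the shMCU libraries, against 20, 2 and 7 counts in the shNC libraries. By CPM, miR-451a was higher in every shMCU than in any shNC library, but by less than 1 read is worth. Its lowest shMCU value was 204 CPM, in replicate 2, where 1 read was worth 68.1 CPM. It was under the filter and was not tested. Of the 79 tested miRNAs, 1 was higher without overlap in this way. miR-486-5p overlapped. miR-155-5p, of activated lymphocytes, had 9 counts in all. The most abundant of the list, miR-146a-5p, had 128 counts in all, so the summed level mainly follows this miRNA. Its fitted log2 fold change was 0.03 ± 0.38 (SE). Liver miRNAs, led by miR-122-5p, took 2.50% to 10.5% of counts in shMCU and 1.38% to 2.52% in shNC libraries. The part of blood or liver miRNAs in the lower miR-181 values was not tested.

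The guides were searched for short motifs. The motifs GGAG and CCCU, which have been described as enriched in miRNAs of exosomes, were searched on the RNA strand of the mature sequences, and neither occurs in miR-181a-5p, miR-181b-5p or miR-181d-5p. Of the 437 listed miRNAs matched to a RefSeq mature sequence, 9.84% held GGAG and 8.47% held CCCU.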

How the data were processed

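Small RNA was sequenced from exosomes of 3 shMCU and 3 shNC libraries, grouped by sample title. Each deposited table holds the raw count of reads for each mature miRNA in 1 library; that the authors left these counts unscaled was judged from the values, which are whole and differ in total. Reads were aligned with Bowtie to hg19 per the submitters' processing notes; the version, mismatches, counting tool and miRNA annotation are not stated there. Coordinates and sequences come from GRCh38 (RefSeq and GENCODE release 29), matched by name, with none converted. The comparison used edgeR 4.0.16 (R 4.3.3) (filterByExpr with a minimum count of 10, TMM, robust quasi-likelihood F test, group only), adjusted over all 79 tested miRNAs by Benjamini-Hochberg at 0.05; standard errors are the absolute log2 fold change over the square root of F. CPM use library totals unless stated. Log2 CPM for the correlations and the principal component used TMM-scaled totals of the tested miRNAs and a prior count of 2. Named miRNAs are the members, opposite arms, seed sharers, the 3 most alike, the 2 neighbours in level on each side and the 2 most abundant of each list; the members and lists were chosen with earlier results of these data known. Alternatives used DESeq2 1.42.0, limma 3.58.1, other scalings and filters, a replicate block and each library left out. Same-numbered libraries did not deviate together.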

Additional observations from a re-analysis of the deposited data

How the results depend on the processing

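Under the 13 alternatives that gave a value, miR-181a-5p and miR-181b-5p were fitted lower in shMCU and passed no adjusted test; adjusted p ran from 0.46 to 0.99 and from 0.26 to 0.99 (edgeR, DESeq2 or limma). The stricter filter of 100 counts in 3 libraries left neither miRNA nor the sum in the table. The number of miRNAs called, 0, was 1 with DESeq2 (miR-122-5p) and 1 without a filter (miR-375, chosen after its values were seen); the cause was not tested. The log2 fold change of the sum, -0.52, was -0.36 with the 10 most abundant miRNAs removed and -0.55 to -0.37 with a library left out, least negative without shMCU replicate 2. The TMM factors of the separate members and the other scalings of the count without overlap were chosen after seeing the data; that count, 8, was 5 with TMM and 5 with DESeq2 size factors. Equal replicate numbers did not pair the libraries: same-numbered deviations from the group means correlated at 0.16, -0.35 and 0.08. A replicate block gave 0 calls, log2 fold changes of -0.34, -0.58 and -0.52 for miR-181a-5p, miR-181b-5p and the sum; for the share difference a block changes nothing by arithmetic. That difference, 4.11 points, was 5.64 points with pooled counts and 1.95 to 6.49 points with a library left out. Depth limits miR-181d-5p and the opposite arms.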
